A study of Mus musculus with 12 samples.

Results

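The regions of open chromatin at 35 genes of glycolysis and the hypoxia response were followed in hematopoietic stem cells (HSCs) of mouse bone marrow. They were found by position alone: every ATAC-seq summit with a score of 3 or more, with 250 bp on each side and overlapping windows merged over 12 libraries, that lay in the body of a member gene or within 10 kb of it in the GENCODE annotation of mm10. This gave 157 of the 71006 regions in the whole catalogue. Of these, 48 lay within 1 kb of an annotated start of the member gene and are called promoters, 19 lay within 1 kb of the start of another gene only, and 90 were distal. ATAC-seq marks open DNA with a transposase, and a summit is the point of highest signal in a called peak.

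The mice were of the C57BL/6 strain, WT or Mlkl-/-, and either Young (3 months) or Aged (18 months), with 3 libraries for each of the 4 groups. Mlkl-/- mice lack a pseudokinase known for carrying out necroptosis, in which cells lyse. Each library came from sorted HSCs pooled over several animals, with more mice in a young pool than in an aged one, and the study used animals of both sexes without selection. The labels name no treatment.

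Glycolysis splits glucose into pyruvate, which lactate dehydrogenase turns into lactate and which pyruvate dehydrogenase feeds into the mitochondria. HSCs reside in a marrow niche that is low in oxygen and are known for relying on glycolysis while quiescent. When oxygen falls, prolyl hydroxylases no longer mark the hypoxia-inducible factors for destruction by the von Hippel-Lindau protein, and the factors bind DNA with their partner Arnt and raise the transcription of most glycolytic genes.

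The sequences that carry the results are shown first, as 121 bases centred on the summit, read 5′ to 3′ on the strand of the member gene (mm10, GRCm38). The first set holds the 3 distal regions whose rank changed with age. Capitals mark matches on either strand to any of 6 short motifs. The AP-1 motif was searched as TGANTCA. For ETS factors the letters were AGGAAGT. RUNX factors were represented by TGTGGTT. The GATA factors, which control blood formation, were represented by AGATAA. The hypoxia response core was searched as ACGTG and, in its other common form, as GCGTG.
Hk2 intron, 20.1 kb downstream of the start, chr6:82753216-82753336, minus strand: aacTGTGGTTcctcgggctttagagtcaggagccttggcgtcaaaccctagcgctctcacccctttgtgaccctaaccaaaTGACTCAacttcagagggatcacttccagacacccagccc
Pfkp intron, 6.05 kb downstream, chr13:6642613-6642733, minus strand: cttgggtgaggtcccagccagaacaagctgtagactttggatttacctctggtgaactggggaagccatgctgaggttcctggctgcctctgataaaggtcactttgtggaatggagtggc
Egln3 upstream region, 5.53 kb from the start, chr12:54209327-54209447, minus strand: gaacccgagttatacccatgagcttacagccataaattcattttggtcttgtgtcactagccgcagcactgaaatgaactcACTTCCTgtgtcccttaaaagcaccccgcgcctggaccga
Within these 121 bases the Hk2 sequence holds 1 RUNX and 1 AP-1 match, the Egln3 sequence 1 ETS match, and the Pfkp sequence none. Within 201 bases centred on the same summits the Pfkp region holds 1 AP-1 and 1 ETS match. In that window the Egln3 region holds 2 ETS matches, and the Hk2 region again 1 RUNX and 1 AP-1 match. The second set holds promoters chosen among those whose bases touch no annotated exon. In the order of ranks of the 35 genes Pdhb stood at place 1, Pgk1 at 4, Pdk2 at 9, Hk2 at 10 and Hk3 at 35. Here capitals mark only ACGTG and GCGTG, the core that hypoxia-inducible factors bind.
Pgk1 promoter, chrX:106186888-106187008, plus strand: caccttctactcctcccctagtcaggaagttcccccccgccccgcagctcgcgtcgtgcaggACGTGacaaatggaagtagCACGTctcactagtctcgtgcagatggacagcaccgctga
Pdk2 promoter, chr11:95041400-95041520, minus strand: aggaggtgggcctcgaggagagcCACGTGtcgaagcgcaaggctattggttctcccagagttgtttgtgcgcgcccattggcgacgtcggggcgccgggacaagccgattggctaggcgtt
Hk2 promoter, chr6:82774491-82774611, minus strand: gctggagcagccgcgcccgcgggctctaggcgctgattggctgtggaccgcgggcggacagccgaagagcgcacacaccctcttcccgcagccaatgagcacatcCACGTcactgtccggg
Pdhb promoter, chr14:8173038-8173158, minus strand: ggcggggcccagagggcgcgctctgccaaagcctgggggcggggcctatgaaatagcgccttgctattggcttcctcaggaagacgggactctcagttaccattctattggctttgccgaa
Hk3 promoter, chr13:55021463-55021583, minus strand: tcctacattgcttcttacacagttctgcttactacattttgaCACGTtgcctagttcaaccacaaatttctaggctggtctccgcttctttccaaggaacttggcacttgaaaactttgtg
Pgk1 and Hk2 are textbook targets of the hypoxia-inducible factors, and their sequences hold 2 matches and 1, while that of Pdk2 holds 2 that share the palindrome CACGTG. The Pdhb sequence has none within these bases and was the strongest promoter of the set, and the Hk3 sequence has 1 and was the weakest. Of further promoter sequences that were taken but are not shown, those of Ldha, Pdk4 and Pdha1 hold 1 match each. Those of Pkm, Slc16a3, Epas1 and Egln1 hold none. In the wider window of 201 bases the Pdhb promoter holds 1 GCGTG and the Slc16a3 promoter 2 ACGTG. There Ldha and Pdk4 hold 1 ACGTG and 2 GCGTG each and Pdha1 2 GCGTG. Pkm, Epas1 and Egln1 hold none there either.

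The lists held between 35714 and 61495 summits with a score of 3 or more, from 35714 to 56368 in young and from 47032 to 61495 in aged libraries. They hold no read counts, so depth was unknown and no counting interval can be given. For every comparison of rank each list was therefore reduced to its 35714 strongest summits, the length of the shortest list. The start of Mlkl was called in 12 of 12 full lists (genotype difference over both ages 0.319 ± 0.27, SE, limma adjusted p = 0.872), which is no check of the genotype, since an open start says nothing of whether the gene is intact. Of 12 HSC marker genes, 5 to 10 had a called promoter in each library, Kit, Hlf and Robo4 in all of them and Slamf1, which encodes the CD150 protein used in the sort, in none. Among markers of other lineages, Epor was called in all libraries, while Cd79a, Cd3e, Klf1, Elane, S100a8 and Mpo were called in none. Summits at Y genes occurred in Young WT 1, Young Mlkl-/- 1 and Young Mlkl-/- 2 and in 0 of 6 aged libraries. An extra tag of unexplained meaning stands in the file names of 9 libraries.

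Many of the member regions were open in every library. In full lists 69 of the 157 regions (43.9%) were called in all 12 libraries, against 28.6% of the whole catalogue. Promoters were called more widely, 33 of 48 in every library, than distal regions, of which 24 of 90 were (against 59.7% of all promoters and 17.8% of all other regions). A region called in each aged and no young library, or the reverse, did not occur among the members (0 and 0 of 157), while the catalogue held 597 of the first kind (0.841%) and 39 of the second (0.0549%).

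Counted over full lists, Young WT libraries held 96, 96 and 87 of the 157 regions and Young Mlkl-/- libraries 99, 118 and 84. Aged WT libraries held 112, 102 and 110, and Aged Mlkl-/- libraries 113, 101 and 117. Aged libraries were mostly the higher ones, but Young Mlkl-/- 2, which has the longest young list, held the most of all. The whole catalogue moved the same way. Among WT libraries the mean share called in full lists was 49.1% of all regions for Young and 62.3% for Aged ones, against 59.2% and 68.8% of the members. Among Mlkl-/- libraries these shares were 53.3% and 63.5% of all regions, against 63.9% and 70.3% of the members. In lists of equal length the WT means were 81 ± 3 for Young and 81.3 ± 1.53 for Aged libraries, and the Mlkl-/- means 79.7 ± 4.04 and 83.3 ± 3.51 (SD, n = 3), so that all groups overlapped, and the means over the whole catalogue lay between 41% and 42.6% of regions. In bulk samples fewer cells with an open region and less opening per cell cannot be told apart.

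**Figure D1:**
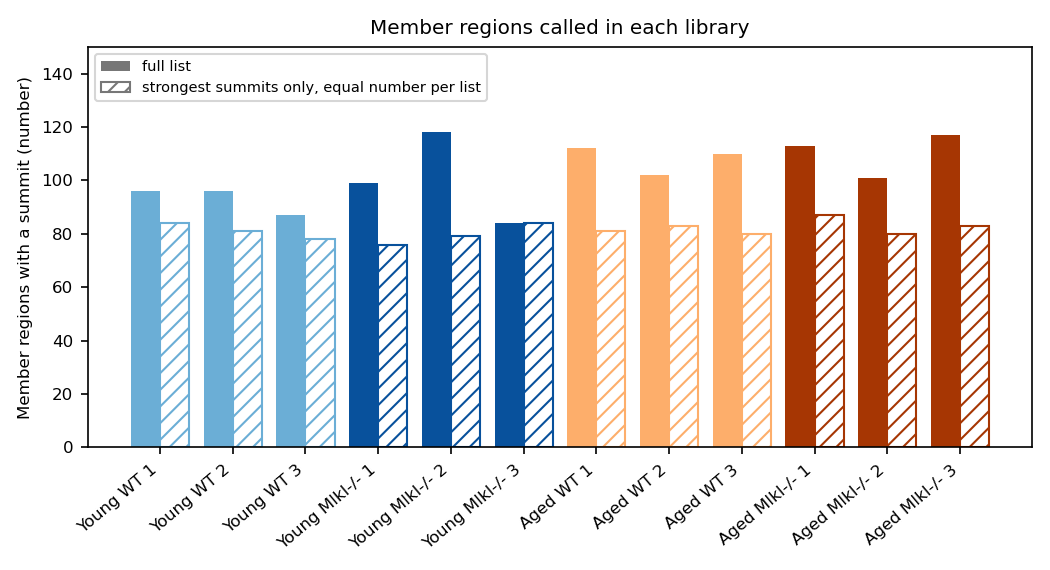
Number of member regions (of 157) with a summit in each of the 12 libraries. Filled bars count the full list, in which the numbers run from 84 to 118, and hatched bars count the 35714 strongest summits of each list, in which they run from 76 to 87.

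Each of the 35 genes had at least 1 promoter region, against 65.9% of 21911 protein-coding genes. The strongest promoter of 30 genes (85.7%) was called in all 12 full lists and that of 27 genes (77.1%) in all 12 lists of equal length, against 49.2% and 42.2% of protein-coding genes. To place a promoter, its percentile among the 35714 summits of each library was taken, with 100 for the strongest and 0 for a region that was not called. The median over genes of this value was 73.6, and 62.8 over protein-coding genes with a promoter region.

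Hexokinases trap glucose in the cell by phosphorylating it. Hk2, the form bound to mitochondria in proliferating cells, had a promoter at a median percentile of 88.4 (75.9 to 93.8), and Hk1, the form found in most tissues, at 80.4 (66.3 to 88). Hk3, a form prominent in myeloid cells, was called in 0 of 12 lists of equal length and in full lists only in 2 of 3 Aged WT and 1 of 3 Aged Mlkl-/- libraries. Around these genes lay 10 regions at Hk1, 8 at Hk2 and 5 at Hk3, so that even Hk3, with its weak start, had 4 distal regions.

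In upper glycolysis the regulators of phosphofructokinase led. Pfkfb3 and Pfkfb4 make and degrade the activator fructose 2,6-bisphosphate, and their promoters lay at 94.9 (91.2 to 98.7) and 91 (84.5 to 96.5). Gpi1, the isomerase that follows hexokinase, lay at 87.6. The phosphofructokinase genes themselves were at 82.9 for Pfkp, 77 for Pfkm and 70.7 for Pfkl, and the summit of Pfkm lay 652 bp downstream of a start and shared its position with the start of Senp1. The aldolases, which cleave the sugar, were at 71.3 for Aldoa and 60.3 for Aldoc. Tpi1, triosephosphate isomerase, was the weakest here at 24.8 and is described with age below. Pfkfb3 had 12 regions, Pfkfb4 7, Pfkp and Tpi1 6 each, Gpi1, Pfkl, Pfkm and Aldoa 4 each and Aldoc 2.

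Lower glycolysis covers the steps that yield ATP and pyruvate. Its strongest promoters were those of Pgk1, the first ATP-forming kinase, at 93.7 (87.7 to 98.4) and of Eno1, the ubiquitous enolase, at 91.3 (77 to 97.2). Gapdh followed at 76.6, Pgam1 at 69.8 and Pkm, pyruvate kinase, at 61.8. Eno2, the enolase of neurons, was at 10.6 and was called in 8 of 12 lists of equal length and in all 12 full lists. These genes had few regions: 6 at Pkm, 5 at Eno1, 3 each at Gapdh and Eno2 and 2 each at Pgk1 and Pgam1. Several of these enzymes have processed copies elsewhere in the genome, and how reads with several matches were treated is not given in the sources used here.

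Among the genes of lactate and of transport, Ldhb, whose enzyme favours the return of lactate to pyruvate, was at 94.2 (81.1 to 99.4) and Ldha, the form that makes lactate, at 79.8 (70.3 to 92.6). The ranges of this pair overlapped. The glucose carriers were lower, Slc2a1 at 55.2 and Slc2a3 at 37.3. Slc16a1, a carrier of lactate in both directions, was at 51.2. Slc16a3, the carrier that exports lactate from strongly glycolytic cells, was called in 1 of 12 lists of equal length and in 5 full lists (Young: 1 WT and 2 Mlkl-/-, Aged: 0 WT and 2 Mlkl-/-). Slc2a3 had 12 regions along an annotated body that a long transcript extends, Slc2a1 6, Ldha 5, Slc16a3 4, Slc16a1 3 and Ldhb 1.

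Entry into mitochondria depends on pyruvate dehydrogenase, which its kinases switch off. Pdhb, a subunit of the enzyme, had the strongest promoter of all 35 genes, with a percentile between 98.5 and 99.9 in the 12 libraries and a median of 99.7. It ranked above the next gene, Pfkfb3, in 11 of 12 libraries. The other subunit gene, Pdha1, was at 78.9, and the kinases were at 87.9 for Pdk2, 73.6 for Pdk1 and 71.7 for Pdk4. Regions numbered 3 at Pdk2, 2 each at Pdk1, Pdha1 and Pdhb and 1 at Pdk4.

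In oxygen sensing the factors and their opponents differed. Arnt, the constant partner, was at 91.6 (81.7 to 96.5) and Hif1a, the oxygen-sensitive subunit, at 90.6 (72.4 to 94.9), whereas its relative Epas1 was at 37.3. Vhl, which recognises the hydroxylated factors, was at 57.8. The hydroxylases Egln3, itself induced by hypoxia, and Egln1, the main sensor in most cells, were at 45.2 and 0. Egln1 was called in 3 of 12 lists of equal length and in 7 full lists. Hif1a had 5 regions, Vhl 2 and the remaining genes of this list 4 each.

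**Figure D2:**
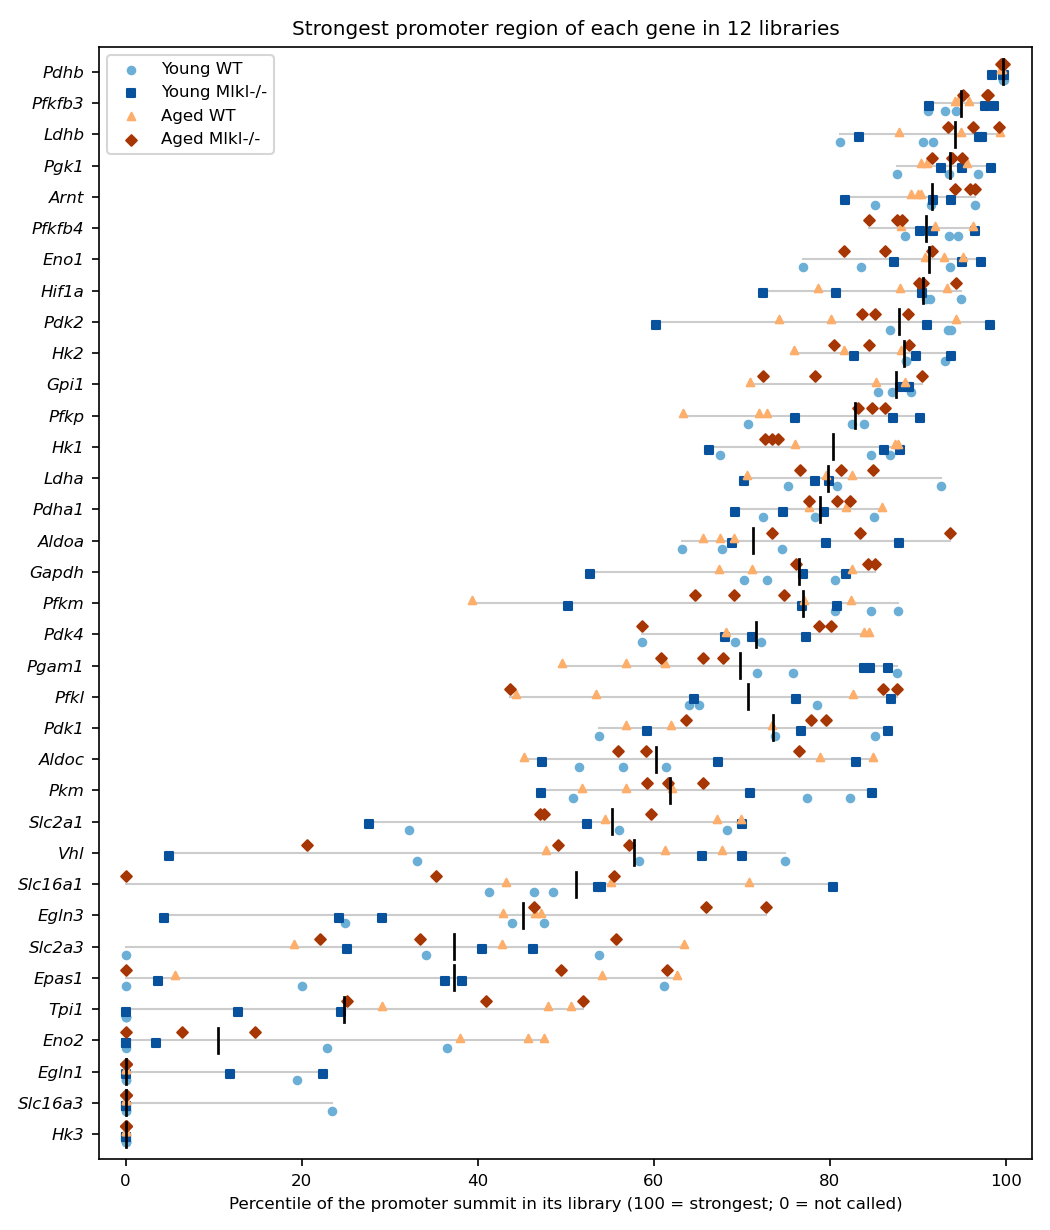
Percentile of the strongest promoter region of each of the 35 genes in each of 12 libraries (100 is the strongest of 35714 summits and 0 means not called in the shortened list), with genes in the order of their mean normal score and a black tick at the median. Pdhb stands between 98.5 and 99.9 in every library, and Egln1, Slc16a3 and Hk3 have a median of 0.

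The core of the hypoxia response element was common at these promoters. Within 201 bases centred on the summit, ACGTG stood in 19 of 48 member promoters (39.6%) and in 18.2% of all 18363 promoters of the catalogue, on either strand. GCGTG stood in 33.3% against 38.3%, and at least 1 of the cores in 62.5% against 48.8%. Of the 35 strongest promoters 25 held a core (71.4%), among them Pgk1 with ACGTG in 2 places and Vhl with 4 matches in all. The palindrome CACGTG, which holds ACGTG on both strands, was found in 3 member promoters, 6.25% against 6.91%. In member distal regions a core occurred in 33.3%, against 23.8% of all regions away from starts, an AP-1 match in 20% against 12.1%, and a RUNX match in 7.78% against 12.5%. These are matches of letters and not sites of binding.

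The rank of each region was turned into a normal score. Most regions of the catalogue were not called in a list of equal length, and these share a score that lies between −0.575 and −0.525. The weakest called regions lie clearly above this, as at 0.185 for a region at percentile 0.48 in Aged Mlkl-/- 1. A change between not called and called therefore includes this step. Differences are given on this scale, with aged minus young averaged over both genotypes unless said otherwise. The 97 member regions called in at least 3 lists of equal length were tested (38 promoters, 13 starts of another gene and 46 distal regions) in a limma fit over all 37875 such regions of the catalogue.

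With age 3 member regions passed an adjusted p of 0.01 and all were higher, in introns of Hk2 and Pfkp and upstream of Egln3. Of the whole catalogue 1.71% passed as higher and 1.01% as lower, so 3 higher and 0 lower of 97 is near the background. At an unadjusted p under 0.05, 16 members (16.5%) differed, against 22.2% of all regions tested, and the median change was 0.024 in members and −0.007 in all. The young and aged normal scores of 6 members did not overlap, against 3.89% of all regions.

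Counts were taken apart for promoters and distal regions. None of the 38 promoters passed (0 higher and 0 lower in limma), 2 had an unadjusted p under 0.05 (5.26%, against 12.5% of all 13944 tested regions at a gene start, of which 49 passed as higher and 51 as lower), and the middle 50% of their changes lay between −0.15 and 0.11. Of 46 distal regions 3 passed, all higher, beside 600 higher and 331 lower of all 23931 distal regions tested. An unadjusted p under 0.05 was found for 12 (26.1%, against 27.8% of all distal regions), and the middle 50% lay between −0.25 and 0.21. None of the 13 starts of another gene passed, and 2 had an unadjusted p under 0.05 (15.4%, against the 12.5% at all gene starts).

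By role, 1 of 10 hexokinase regions passed, 1 of 33 in upper glycolysis, 0 of 13 in lower glycolysis, 0 of 20 for lactate and transporters, 0 of 7 for pyruvate dehydrogenase and its kinases, and 1 of 14 in oxygen sensing. Over all regions tested 1.71% passed as higher and 1.01% as lower, so counts of 0 or 1 do not set these lists apart. The median changes of these lists were −0.15, 0.02, 0.11, 0.035, −0.05 and 0.095. Among 27 other genes of glycolysis and pyruvate 0 of 47 regions passed (limma), with a median of −0.009. Among 28 other genes of the hypoxia response 1 of 77 passed, with a median of −0.004, a distal region in Rora, a nuclear receptor gene, at 1.51 ± 0.21 (SE, limma adjusted p = 0.000363) that no young full list held (0 of 6) and every aged one did (6 of 6). In the whole catalogue 0.841% of regions were held by every aged and no young full list. HSC markers had 0 of 35 regions past the threshold with a median of 0.241, and markers of other lineages 0 of 17 with a median of −0.107.

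**Figure D3:**
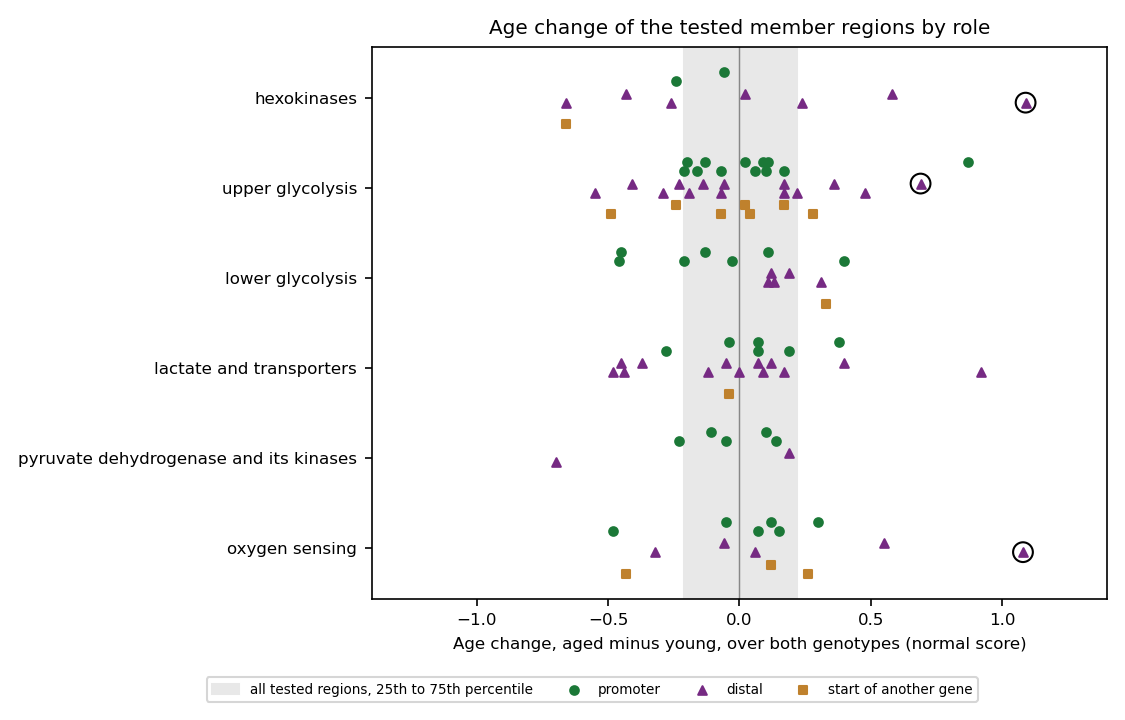
Age change of the 97 tested member regions in normal scores, 1 point per region, by role of the gene and by place, with the middle 50% of all tested regions shaded. The 3 circled points, all distal, passed an adjusted p of 0.01, and most promoters lie within or near the shaded band.

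The Hk2 region lay in an intron 20.1 kb downstream of the start, at chr6:82752981-82754127. Its percentile was 34.1, 19.7 and 25.8 in Young WT and 21.8, not called and 1.55 in Young Mlkl-/-. In aged libraries it was 93.9, 69.4 and 86.1 in WT and 80.7, 83.7 and 64.8 in Mlkl-/-. All 6 aged libraries lay above all 6 young ones, and in full lists all 12 called the region, so its rank and not its presence changed. The mean normal score of WT libraries was 0.499 ± 0.076 at 3 and 1.49 ± 0.395 at 18 months, and that of Mlkl-/- libraries 0.042 ± 0.541 and 1.241 ± 0.227 (SD, n = 3). The age change was 1.09 ± 0.19 (SE, limma adjusted p = 0.00156), with 0.99 ± 0.26 in WT (adjusted p = 0.0572) and 1.20 ± 0.26 in Mlkl-/- (adjusted p = 0.0329).

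The Hk2 promoter did not follow, at −0.24 ± 0.12 (limma adjusted p = 0.232). A region 9.03 kb downstream of the Hk2 start, which lies at the start of the transcript Gm17034 within the gene, was called in all 12 full lists. In lists of equal length it had percentiles from 14.4 to 55.8 in young libraries and from not called to 12.3 in aged ones. The groups did not overlap here either, in the opposite direction, but the change of −0.66 ± 0.23 did not pass (limma adjusted p = 0.0978). Another Hk2 region 32.9 kb downstream stood at −0.43 ± 0.21 (limma adjusted p = 0.232).

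The Pfkp region lay in an intron 6.05 kb downstream of the start, at chr13:6642348-6642986. Pfkp encodes the platelet form of phosphofructokinase. Percentiles were 65.5, 47.5 and 64.6 in Young WT and 35.2, 76.9 and 51.8 in Young Mlkl-/-, and 93.6, 78.6 and 91.2 in Aged WT and 84.7, 89.8 and 88.0 in Aged Mlkl-/-. All 12 libraries called it, and the ages did not overlap, although Young Mlkl-/- 2 and Aged WT 2 nearly met. The age change was 0.69 ± 0.14 (SE, limma adjusted p = 0.00426), at 0.70 ± 0.19 in WT and 0.67 ± 0.19 in Mlkl-/- (adjusted p = 0.064 and 0.0804). Its promoter stood at −0.13 ± 0.12 (adjusted p = 0.58), and 2 more tested regions in the gene at 0.17 ± 0.23 and −0.23 ± 0.31.

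The Egln3 region lay between genes, 5.53 kb upstream of the start, at chr12:54209130-54209683. In Young WT it was at 31.9, not called and 10.9, and among Young Mlkl-/- lists of equal length it was called only in replicate 3, at 0.82. It was at 64.3, 40.7 and 83.3 in Aged WT and 58.1, 65.4 and 68.0 in Aged Mlkl-/-. Every aged library was above every young one, and in full lists 5 of 6 young and 6 of 6 aged libraries called it. The age change was 1.08 ± 0.23 (SE, limma adjusted p = 0.00818), with 0.91 ± 0.33 in WT and 1.25 ± 0.33 in Mlkl-/- (adjusted p = 0.179 and 0.0616). The Egln3 promoter stood at 0.30 ± 0.15 (adjusted p = 0.248) and a region 11.6 kb downstream at −0.06 ± 0.13.

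Of these 3 calls that at Hk2 held when each library was left out in turn. The Pfkp call was lost without Young WT 2, Young Mlkl-/- 1, Aged WT 1, Aged WT 3, Aged Mlkl-/- 2 or Aged Mlkl-/- 3 (limma adjusted p from 0.0115 to 0.018), and the Egln3 call without any of Young WT 2 and 3, Young Mlkl-/- 1 and 2, Aged WT 1 and 3 and Aged Mlkl-/- 1, 2 and 3 (from 0.0129 to 0.0312). Their direction held throughout. With percentiles in place of normal scores none of the 3 passed (limma adjusted p = 0.0104 at Hk2, 0.0109 at Pfkp and 0.0227 at Egln3), while 708 regions of the catalogue did. List length and Y-gene summits moved with age. With list length as a covariate the changes were 1.33 at Hk2, 0.57 at Pfkp and 1.24 at Egln3 (limma adjusted p = 0.0128, 0.109 and 0.0484), and with Y-gene summits as a covariate 1.04, 0.74 and 1.04 (0.0219, 0.0226 and 0.0622). In the 9 libraries with the tag the changes were 0.92, 0.78 and 0.94 (0.0206, 0.0154 and 0.0848), and in the 9 libraries without Y-gene summits 1.0, 0.74 and 0.91 (0.0184, 0.0244 and 0.0601).

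At an adjusted p of 0.05, 5 members were higher and 2 lower, 7 of 97, while 4.41% and 3.36% of the catalogue passed. The members added were regions of Slc2a3, Tpi1, Hk1 and Pgam1. The Slc2a3 region lay in an intron of the long transcript, 39.7 kb upstream of the nearest Slc2a3 start in the basic GENCODE set. In the full GENCODE set a start also lies within 1 kb of the member region 58.98 kb upstream, so a start lies closer than 39.7 kb. The intronic region was called in 0 of 3 Young WT libraries and in 1 of 3 Young Mlkl-/- at 27.4. It was called in 6 of 6 aged libraries, at 28.6, 10.5 and 29.0 in WT and 47.9, 36.0 and 43.5 in Mlkl-/-. One young library, Young Mlkl-/- 1, lay within the aged range. The change was 0.92 ± 0.23 (SE, limma adjusted p = 0.0215). Of the other Slc2a3 regions tested none passed, and those 16.2 and 22.1 kb upstream stood at −0.45 ± 0.17 and −0.48 ± 0.22 (adjusted p = 0.118 and 0.207).

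The Tpi1 promoter was the only promoter among the 5 highest changes. Its summit lay 46 bp downstream of the start in the first coding exon. It was called in 0 of 3 Young WT lists of equal length, in 2 of 3 Young Mlkl-/- lists at 12.8 and 24.5, and at 29.1, 50.6 and 48.0 in Aged WT and 25.1, 52.0 and 41.0 in Aged Mlkl-/-. Among full lists 1 of 3 Young WT, 3 of 3 Young Mlkl-/- and 6 of 6 aged ones held it. Aged libraries were all higher than young ones by percentile, with Young Mlkl-/- 3 just under the lowest aged library, but overlapped them by normal score. The change was 0.87 ± 0.23 (SE, limma adjusted p = 0.0254), with 1.22 ± 0.33 in WT and 0.53 ± 0.33 in Mlkl-/-.

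Pgam1, phosphoglycerate mutase, had the lowest adjusted p of all member promoters. Its percentile was 87.7, 75.8 and 71.7 in Young WT and 84.6, 83.9 and 86.6 in Young Mlkl-/-, against 49.6, 56.9 and 61.3 in Aged WT and 67.9, 60.8 and 65.6 in Aged Mlkl-/-. The ages did not overlap, and the change was −0.46 ± 0.12 (SE, limma adjusted p = 0.0198). An intronic Hk1 region 33.9 kb downstream of a start was at 64.9, 81.5 and 81.2 in Young WT and 68.6, 74.1 and 75.1 in Young Mlkl-/-. It was at 64.6, 30.1 and 54.9 in Aged WT and 35.2, not called and 53.5 in Aged Mlkl-/-, so that every aged library was lower. All 12 full lists held this Hk1 region. The change was −0.66 ± 0.20 (SE, limma adjusted p = 0.0442).

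The lowest change of all missed both thresholds. Upstream of Pdk2, 5.82 kb away within Itga3, a region held by 4 of 6 young lists of equal length but 0 of 6 aged ones stood at −0.70 ± 0.25 (limma adjusted p = 0.0996), and among full lists 6 of 6 young and 5 of 6 aged ones held it. At Pfkfb4 an intronic region 9.06 kb downstream stood at −0.55 ± 0.23, and the start of Shisa5, 46.8 kb downstream of the Pfkfb4 start, at −0.49 ± 0.21 (limma adjusted p = 0.174 and 0.179).

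**Figure D4:**
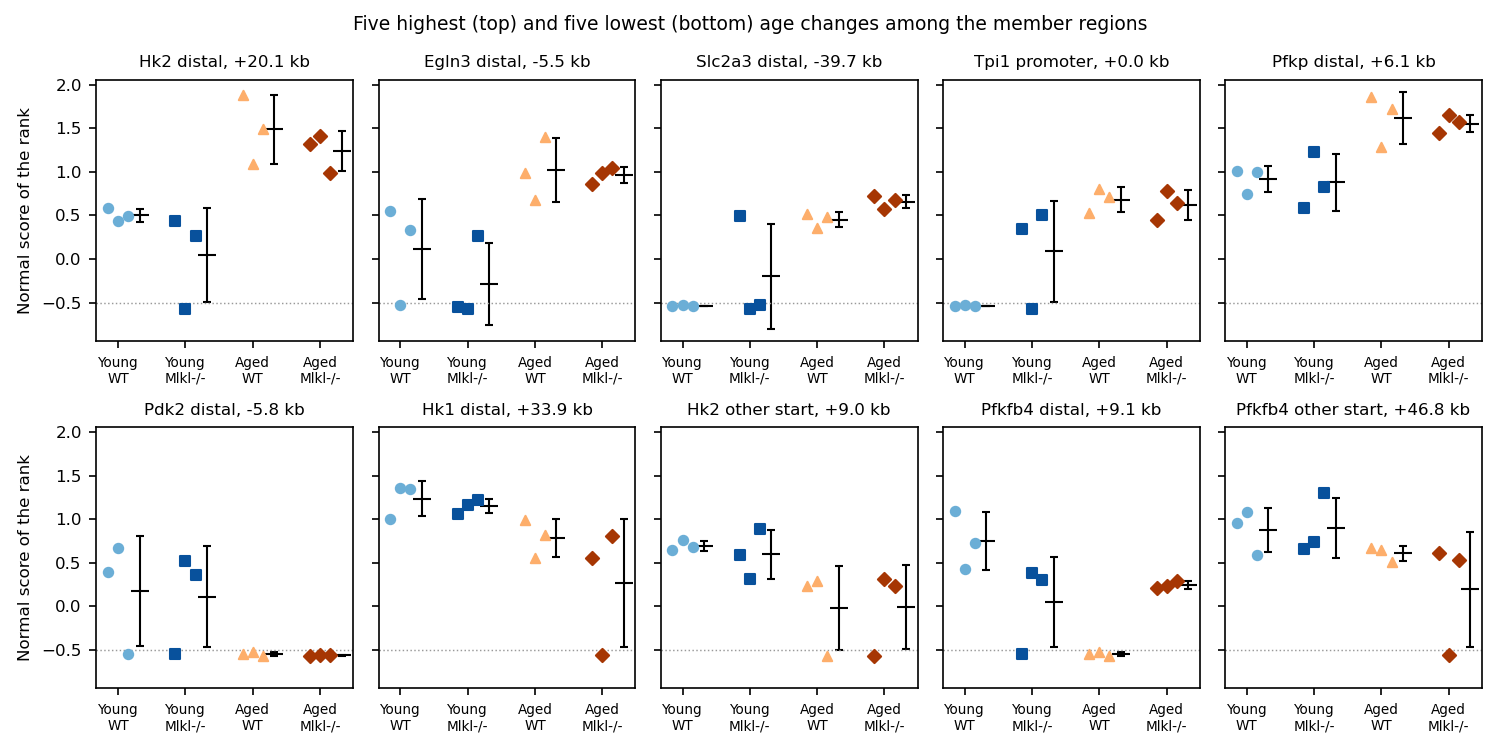
Normal score of the rank in each library for the member regions with the highest (top row) and the lowest (bottom row) age change. Distances are from the gene's nearest start in the basic GENCODE set. Points are libraries, bars are means ± SD (n = 3), and points at the dotted line were not called. In the top row Hk2, Egln3 and Pfkp show no overlap of the 6 young with the 6 aged libraries.

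Within each genotype alone no member passed in limma. In WT 0 of 97 passed, against 0.201% of the catalogue, and 11 had an unadjusted p under 0.05 (11.3%, against 14.6% of all regions tested). In Mlkl-/- 0 passed, against 0.15% of the catalogue, and 10 had an unadjusted p under 0.05 (10.3%, against 14.4%). The age changes of WT and Mlkl-/- were compared by an interaction term, for which 0 of 97 members and 0% of the catalogue passed, and 4 members had an unadjusted p under 0.05 (4.12%, against 4.79%). The lowest of these belonged to the intronic Pfkfb4 region. Among full lists 6 of 6 young and 5 of 6 aged ones, 2 of 3 Aged WT among them, held this region. It was at 69.8, 18.8 and 46.2 in Young WT and not called in any Aged WT list of equal length, while in Mlkl-/- it was not called, at 20.5 and at 4.51 in young libraries and at 2.97, 4.82 and 9.74 in aged ones. Its age change was −1.29 ± 0.33 in WT and 0.20 ± 0.33 in Mlkl-/-, which differ by 1.49 ± 0.47 (SE, unadjusted p = 0.00496 in limma, adjusted p = 0.965). The Eno1 promoter (−0.71 ± 0.28) and a region 2.73 kb upstream of Slc2a1 (1.27 ± 0.51) had the next lowest p, each with an adjusted p of 0.965.

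Loss of Mlkl was examined last, as Mlkl-/- minus WT. Over both ages 0 of 97 members and 0% of the catalogue passed in limma, and 7 members had an unadjusted p under 0.05 (7.22%, against 6.22% of all regions tested). At 3 months 0 passed and 3 had an unadjusted p under 0.05 (3.09%, against 5.36%), and at 18 months 0 and 4 (4.12%, against 5.1%), again with 0% of the catalogue past the threshold at both ages. The median difference over both ages was 0.015, and the middle 50% lay between −0.12 and 0.16.

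Over both ages the region with the lowest p lay at the start of Gm5112. It lay 68.25 kb from the nearest Slc2a3 start of the basic GENCODE set and within 10 kb of the annotated Slc2a3 body. It was high in every library, at 94.7, 97.7 and 94.0 in Young WT, 99.4, 98.4 and 96.6 in Young Mlkl-/-, 94.2, 95.8 and 91.2 in Aged WT and 97.4, 99.7 and 98.1 in Aged Mlkl-/-. Of the WT libraries Young WT 2 alone reached into the range of the Mlkl-/- ones, and the difference was 0.51 ± 0.15 (SE, limma unadjusted p = 0.0035, adjusted p = 0.763). The promoters of Aldoa (0.34 ± 0.13) and Pfkp (0.27 ± 0.12) came next, with an adjusted p of 0.763 each.

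At 3 months the largest contrast was the region upstream of Slc2a1, the main glucose carrier of blood cells, at 60.04, 47.2 and 48.2 in Young WT and, in lists of equal length, called only in replicate 2 of Young Mlkl-/-, at 23.9. The full list of Young Mlkl-/- 1 also held it, with a score of 5.66. The difference was −1.02 ± 0.36 (SE, limma unadjusted p = 0.0108, adjusted p = 0.744), and at 18 months it was 0.24 ± 0.36. The Hif1a promoter stood at −0.42 ± 0.18 and the intronic Pfkfb4 region at −0.70 ± 0.33 (limma adjusted p = 0.871 each). At 18 months the Pfkfb4 region stood at 0.79 ± 0.33, the start of Gm5112 at 0.62 ± 0.22 and the Aldoa promoter at 0.43 ± 0.19 (limma adjusted p = 0.867, 0.765 and 0.867). With 3 libraries in each group, differences of this size were not separated from the spread between libraries once all regions were taken into account.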

How the data were processed

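ATAC-seq summits of 12 HSC libraries were analysed, 3 per group of age and genotype as the labels give them. The authors mapped reads to mm10 with Bowtie2 2.5.3 and called peaks per library with MACS2 2.2.7.1. The deposited score of each summit is the −log10 of its q-value, which depends on the depth of its library. Summits on the 19 autosomes and both sex chromosomes scoring 3 or more, which is the q-value of 0.001 that the study states, were used, although the lists begin near 2.00. Windows of 250 bp were merged over all lists, each list was reduced to 35714 summits (ties broken under a fixed seed), and normal scores of the ranks of regions called in at least 3 lists were compared with limma 3.58.1 in R 4.3.3 (group means, eBayes with a trend, 7 contrasts, Benjamini-Hochberg adjustment over all 37875 regions, p under 0.01). The fit was tested on simulated data first. There the age changes added were larger than those of the members, and no regions shared the score of not called. That test therefore does not show how often changes of the size seen here are found. Motifs were counted with pysam 0.24.0 on GRCm38, under GENCODE M21 basic annotation. The study's methods call the libraries biological replicates.

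The calls of some markers of other lineages are not reported here. The members and lists were chosen with earlier results of these data known. The regions named are those past the threshold, the 5 highest and the 5 lowest age changes, the 3 lowest p for each contrast of genotype and for the interaction, and the strongest promoter of each gene. The Pgam1 promoter, the Rora region and other regions of the same genes were added after their values were seen. Alternatives were other scores, windows, list minimums, list lengths and flanks, percentiles, separate fits, a replicate block, covariates and subsets of libraries. Same-numbered libraries did not deviate together (correlations from −0.3 to 0.128), so the numbers were not used as pairs.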

Additional observations from a re-analysis of the deposited data

Results flagged for a closer look

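Summits with a score under 3 were not used in the report. Within 10 kb of the member genes there were 57 of them over the 12 lists, from 1 to 8 per list, which is signal in data outside the comparisons. All but 4 lay inside regions already called from stronger summits of some library. With the low summits included 3 member regions passed the age comparison, as without them.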

How the results depend on the processing

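The count of member regions past the threshold with age, 3, ranged from 1 to 3 when each library was left out in turn and was 1 without Young WT 2, Aged WT 1, Aged WT 3, Aged Mlkl-/- 2 or Aged Mlkl-/- 3. It was 0 with percentiles in place of normal scores, with list length or Y-gene summits as a covariate, in the 9 libraries carrying the tag and in the 9 without Y-gene summits (a choice made after seeing the data), and 7 at an adjusted p of 0.05. Over all regions these settings passed 708, 60, 328, 201, 210 and 2944, against 1031. The replicate block gave 2 (782 of all regions), since the Pfkp region then had an adjusted p of 0.0103 (limma), and same-numbered libraries share only a number. The age count in Mlkl-/- was 1 in lists of unequal length and at an adjusted p of 0.05, and 0 otherwise. That in WT and the counts for genotype and interaction were 0 under every alternative run. The median age change of distal regions, 0.067, was 0.001 for scores of at least 5, −0.011 with list length as a covariate, −0.033 in tagged libraries, 0.016 without Y-gene summits, 0.114 within 2 kb of the genes, and from −0.026 (without Aged Mlkl-/- 2) to 0.09 with libraries left out. It fell to 0.009 without Young Mlkl-/- 1, −0.01 without Young Mlkl-/- 3 and 0.007 without Aged WT 3. That of promoters, −0.005, was −0.08 and −0.073 under the settings for Y-gene summits and from −0.038 to 0.039 with libraries left out. Of 576 values of named regions 539 kept their direction and side of the threshold, 31 lost and 5 gained a call, and 1 reversed: the intronic Pfkfb4 region at 18 months, −0.02 for scores of at least 5. The causes were not tested. Depth is unknown, and 3 libraries per group limit all comparisons.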
